A study of Mus musculus with 6 samples.

Results

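The genes described here encode 6 chemoattractant G protein-coupled receptors of phagocytes: Fpr1 and Fpr2 for formyl peptides, C3ar1 for the complement fragment C3a, C5ar1 and C5ar2 for C5a, and Ptafr for platelet-activating factor (PAF). They were chosen by gene symbol, and all 6 were found once each among 21936 genes. Formyl peptides are released by bacteria and by damaged mitochondria, the anaphylatoxins C3a and C5a are cut from complement proteins, and PAF is a phospholipid made by activated leukocytes. Most of these receptors couple to inhibitory G proteins, whose freed subunits drive calcium release, actin assembly and migration; C5ar2 is the exception, since it binds C5a without coupling to G proteins.

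RNA sequencing was done on sorted macrophages in 2 groups of 3 libraries, all from mice kept on high-fat food over 4 months. The group labelled WT had the genotype ALKBH5flox/flox, APOE-/- and the group labelled CKO the genotype ALKBH5flox/flox, Lyz2-Cre, APOE-/-, so both carried the loxP-flanked RNA demethylase gene and lacked Apoe by label. The Cre is driven by Lyz2, which is active in neutrophils as well as macrophages. Strain, age and the organ of origin were not given in the labels, and it is not said that each library is a different animal; the p-values thus describe variation among libraries that could be technical.

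Values are deposited FPKM, that is reads scaled to gene length and to the reads assigned to genes, given as mean ± SD over n = 3 libraries unless single libraries are listed. The libraries held 15422154 to 18418903 reads assigned to genes. The check of the labels failed, in that Alkbh5 and Apoe did not read as the labels call for. Whole-gene FPKM can also count transcripts of a disrupted gene, and whether the labels are wrong was not tested. Alkbh5, the targeted gene, read 3.87 ± 0.0879 FPKM in the WT-labelled libraries and 8.75 ± 0.350 in those labelled CKO, and Apoe, labelled null throughout, 1635 ± 29.3 and 95.02 ± 4.69. Lyz2, whose promoter drives the Cre, went from 15116 ± 992 to 6556 ± 211 FPKM. Every direction below therefore refers to the libraries as labelled. All 14 genes of a macrophage marker list reached 1 FPKM and all 14 could be tested. With the CKO label 5 were called higher and 9 lower, against 30.5% and 50.5% of all tested genes. After quantile normalization 4 were higher, 9 lower and 1 not called. Adgre1 (F4/80) was at 222 ± 2.98 and 778 ± 19.5 FPKM and Cd68 at 1149 ± 19.4 and 595 ± 10.7. In bulk RNA, fewer cells of a type and less RNA per cell cannot be told apart.

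The formyl peptide receptors rose by 149-fold and 122-fold in the libraries labelled CKO, while the PAF receptor and both C5a receptors fell and C3ar1 stayed near the middle of all genes. By limma at an adjusted p under 0.05, all 6 receptors were called, 2 higher and 4 lower, against 81.1% of all tested genes, of which 30.5% were higher and 50.5% lower (3038 and 5031 genes). After median-of-ratios scaling 3 receptors were higher and 3 lower, because C3ar1 changed sign, and the genes split into 4058 higher and 3874 lower. For none of the 6 did a library of one group fall within the range of the other, which was also so for 82.5% of all tested genes. So common a separation makes the size of each change, rather than its call, the informative value.

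**Figure D1:**
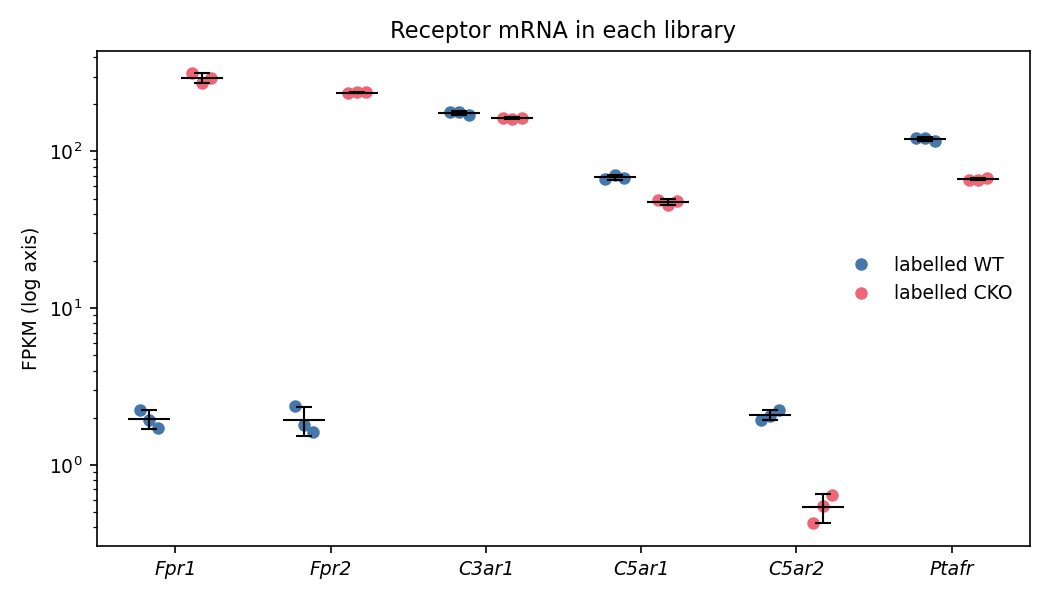
FPKM of the 6 receptors on a log axis, 1 point per library, with the mean (long bar) and SD over 3 libraries; blue is labelled WT and red labelled CKO. Fpr1 and Fpr2 sit at 1.62 to 2.39 FPKM in the WT-labelled libraries and at 235 to 315 in those labelled CKO, whereas C3ar1 differs little.

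Fpr1 encodes the high-affinity receptor for bacterial formyl peptides. It read 2.26, 1.94 and 1.72 FPKM in the libraries labelled WT, from 38 to 55 reads each, and 315, 272 and 295 FPKM in those labelled CKO, from 5563 to 7137 reads. The ratio of means was 149, and single libraries of the groups differed by 121-fold to 183-fold. On log2(FPKM + 1) the change was 6.64 (SE 0.067, limma adjusted p = 1.12e-14), the 9th largest increase among 9953 tested genes. The gene lies on the minus strand of chromosome 17, 17876471 to 17883940 (mm10), in 2 exons.

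Fpr2, whose product also binds lipids and host proteins such as serum amyloid A and annexin A1, gave nearly the same picture. It read 2.39, 1.81 and 1.62 FPKM in the WT-labelled libraries and 235, 238 and 238 FPKM in those labelled CKO, a ratio of means of 122. Its log2 change was 6.35 (SE 0.075, limma adjusted p = 3.54e-14), the 10th largest. Only 15 genes, 0.151% of those tested, rose by at least 6 on this scale. Fpr2 lies on the plus strand of chromosome 17, 17887824 to 17893952, so that the genes face away from each other with 3.88 kb between their ends.

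Sequence shared with other genes limits the Fpr2 value more than the Fpr1 value. Of the 50-base words in the annotated Fpr2 transcripts, 31.5% also occur in another gene's transcripts, 368 of them in the processed pseudogene Gm5966, 82 in Fpr3 and 1 in Fpr1. For Fpr1 the share was 0.0784%. It was 4.39% for C5ar2 and 1.59% for Ptafr, spread over 298 and 102 other genes, and 0 for C3ar1 and C5ar1. Fpr3 starts inside Fpr2 on the same strand (17887852 to 17971677), and how reads over both were assigned is not given in the sources used here. Fpr3 itself had no reads in the libraries labelled WT, where 3 reads would be 0.128 to 0.142 FPKM, and 5, 3 and 1 reads in those labelled CKO. The other 4 receptor genes of the family, Fpr-rs3, Fpr-rs4, Fpr-rs6 and Fpr-rs7, which are known from the vomeronasal organ, were listed at 0 in all 6 libraries.

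The 250 bases before the starts of Fpr1 and Fpr2 are shown because these neighbours rose together, beside those of C5ar2, which fell furthest among the other 4 by ratio. All are from RefSeq on GRCm38.p6, the build named mm10, at chr17:17883940-17884189 (minus strand), chr17:17887574-17887823 (plus strand) and chr7:16244155-16244404 (minus strand, the more distant of the annotated C5ar2 starts). Capitals mark matches on either strand to the motifs searched.
Fpr1: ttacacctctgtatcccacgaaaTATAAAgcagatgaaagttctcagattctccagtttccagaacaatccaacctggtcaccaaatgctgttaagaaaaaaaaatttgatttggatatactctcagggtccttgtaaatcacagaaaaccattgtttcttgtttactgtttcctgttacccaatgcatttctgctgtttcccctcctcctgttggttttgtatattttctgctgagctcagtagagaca
Fpr2: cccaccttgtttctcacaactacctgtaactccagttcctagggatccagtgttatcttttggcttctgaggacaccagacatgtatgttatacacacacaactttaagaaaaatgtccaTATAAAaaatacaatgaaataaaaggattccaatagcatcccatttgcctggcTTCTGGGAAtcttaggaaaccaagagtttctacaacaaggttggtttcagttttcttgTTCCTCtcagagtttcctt
C5ar2: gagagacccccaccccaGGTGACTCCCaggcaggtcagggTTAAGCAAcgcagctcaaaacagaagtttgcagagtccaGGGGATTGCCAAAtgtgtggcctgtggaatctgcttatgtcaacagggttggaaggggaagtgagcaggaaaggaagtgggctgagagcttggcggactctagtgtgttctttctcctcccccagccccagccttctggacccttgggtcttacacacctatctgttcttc
Searched were the PU.1 core GAGGAA, an NF-kB pattern (GGG and CC with any 5 bases between them), the interferon-stimulated response element (GAAA, any 2 bases, GAAA), the gamma-activated STAT site TTCNNNGAA, the AP-1 site TGANTCA, a C/EBP pattern TTGCNNAA and the TATA box TATAAA. Among 32851 promoters of this length they occur in 23.3%, 45.8%, 2.98%, 7.02%, 6.75%, 9.56% and 12.4% in that order. Fpr1 held 1 match, a TATA box that begins 227 bases before the start. In Fpr2 there were 3, a TATA box at 130, a STAT site at 77 and a PU.1 core at 19 bases before the start. C5ar2 held 4, NF-kB patterns at 233 and 171 and C/EBP patterns at 210 and 166 bases before the start, the last of which overlaps the second NF-kB pattern. The shared letters of Fpr1 and Fpr2 were thus the TATA box alone, at different distances. These letters were not particular to the 2 genes, since C3ar1 also held a TATA box match, 235 bases before its start. A PU.1 core lay 26 bases before the other annotated C5ar2 start and 242 bases before that of Ptafr. These matches describe letters in a short window and show no binding.

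C3ar1, the receptor for C3a, was the most abundant of the 6 in the libraries labelled WT. It read 178, 179 and 170 FPKM there and 164, 160 and 164 FPKM in those labelled CKO. The groups did not overlap, yet the means differed by 7.10% of the level labelled WT. On the log2 scale the change was -0.11 (SE 0.029, limma adjusted p = 0.00622), beside a median of -0.14 over all tested genes. Ranked by signed change, C3ar1 was number 4695 from the highest of 9953, near the middle. Median-of-ratios scaling, which moved the changes by a median of 0.16, turned that of C3ar1 to 0.078 (limma adjusted p = 0.0430). Quantile normalization, which moved them by 0.10, gave -0.15 for C3ar1, beside a median of -0.047 over all tested genes. No direction can be given for C3ar1 apart from the scaling. The gene spans chromosome 6, 122847138 to 122856161.

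C5ar1, the signalling receptor for C5a, fell by a moderate amount. Its level was 66.3, 71.2 and 67.9 FPKM in the WT-labelled libraries and 49.2, 45.5 and 48.0 FPKM in those labelled CKO, a ratio of means of 0.695. The log2 change was -0.52 (SE 0.039, limma adjusted p = 2.25e-07), or -0.37 relative to the median gene. With median-of-ratios scaling it was -0.33, more than 1.5 times smaller, and still called.

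C5ar2, the C5a receptor that does not couple to G proteins, was scarce and fell further. It read 1.95, 2.07 and 2.24 FPKM in the libraries labelled WT, from 128 to 133 reads, and 0.426, 0.546 and 0.647 FPKM in those labelled CKO, from 26 to 41 reads. The level labelled WT was 3.87 times that labelled CKO. On log2(FPKM + 1) the change was -1.005 (SE 0.073, limma adjusted p = 1.42e-07), a scale that understates it at this level; with a pseudocount of 0.1 it was -1.79. C5ar2 passed the filter of 1 FPKM in 3 libraries through the group labelled WT alone. C5ar2 (16234585 to 16244154) and C5ar1 (16246743 to 16259540) lie on the minus strand of chromosome 7 with 2.59 kb between them.

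Ptafr, the receptor for PAF, fell the most among the abundant members. It read 122, 123 and 117 FPKM in the WT-labelled libraries and 66.0, 66.2 and 67.5 FPKM in those labelled CKO, a fall of 44.8%. Its log2 change was -0.85 (SE 0.030, limma adjusted p = 2.72e-10), or -0.70 relative to the median gene. Ptafr lies on chromosome 4, 132564067 to 132582683.

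**Figure D2:**
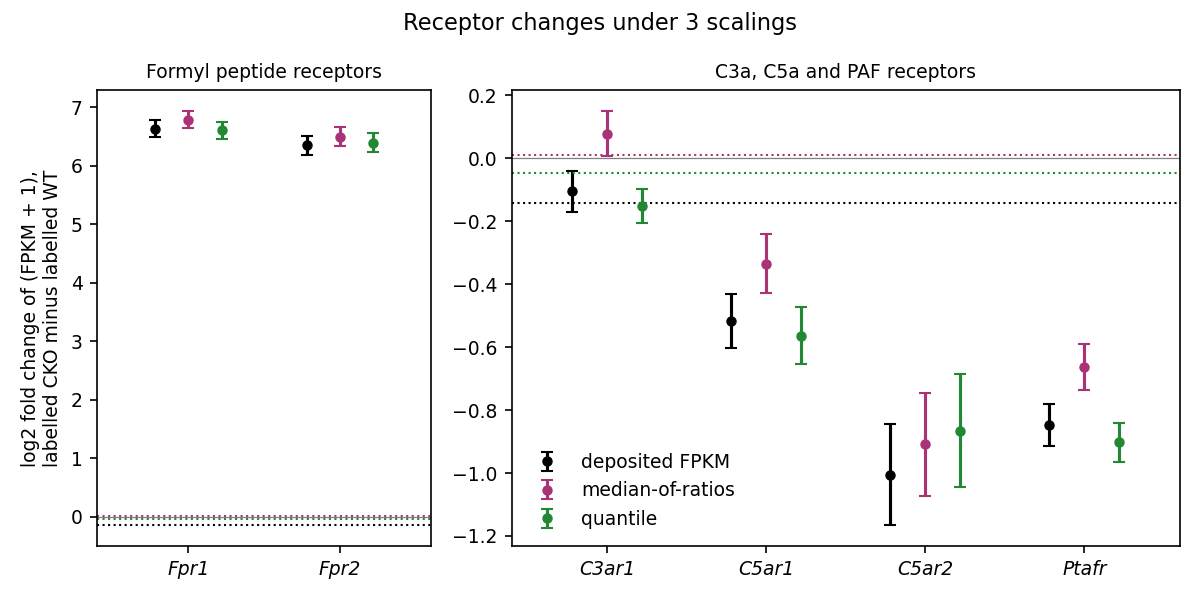
Log2 fold change of each receptor (points, with the 95% interval of the limma fit) from deposited FPKM, after median-of-ratios scaling and after quantile normalization; dotted lines mark the median of all tested genes in the same colours. C3ar1 crosses 0, from -0.11 to 0.078, while the other 5 receptors stay on 1 side.

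These changes reordered the receptors. In the libraries labelled WT the order by FPKM was C3ar1, Ptafr and C5ar1, with no overlap between them, followed by C5ar2, Fpr1 and Fpr2 at 2.09, 1.97 and 1.94 FPKM, which did not differ beyond their spread. In those labelled CKO it was Fpr1, Fpr2, C3ar1, Ptafr, C5ar1 and C5ar2, and no neighbours in that order overlapped. Fpr1 and Fpr2 together made up 1.05 ± 0.169% of the summed FPKM of the 6 receptors in the WT-labelled libraries and 65.7 ± 0.535% in those labelled CKO. The C3a and C5a receptors went from 66.4 ± 0.371% to 26.1 ± 0.278% and Ptafr from 32.5 ± 0.208% to 8.23 ± 0.257%. Each of these shares had an exact permutation p of 0.1, and 3 libraries against 3 cannot go lower. Summed over the 6 receptors the level rose from 370 ± 9.32 to 809 ± 23.6 FPKM, whereas without the formyl peptide receptors it went from 366 ± 9.01 to 278 ± 4.31. The shares do not depend on a scaling factor common to a library.

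**Figure D3:**
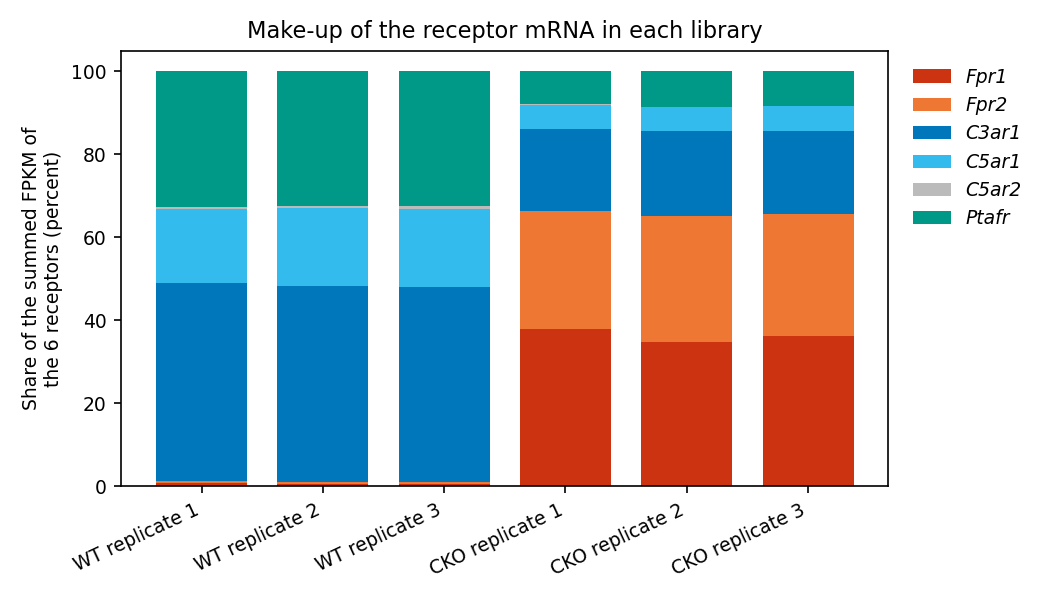
Share of each receptor in the summed FPKM of the 6 receptors, in percent, 1 bar per library. Fpr1 and Fpr2 are barely visible in the libraries labelled WT (1.05% on average) and fill 65.7% in those labelled CKO.

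Unequal change was compared within 3 pairs of receptors, again with 0.1 as the smallest exact permutation p that can be reached, so no pair could pass 0.05. The log2 change of Fpr1 exceeded that of Fpr2 by 0.28 (SE 0.076; exact permutation p = 0.1, adjusted p = 0.1 over the 3 pairs). In FPKM, Fpr1 to Fpr2 was 0.945, 1.07 and 1.06 in the WT-labelled libraries and 1.34, 1.14 and 1.24 in those labelled CKO, so the groups stood close together. Without WT replicate 1 the exact permutation p was 0.2. The change of C5ar1 exceeded that of C5ar2 by 0.49 (SE 0.090, exact permutation p = 0.1), and by 1.26 with a pseudocount of 0.1. There the FPKM ratio of C5ar1 to C5ar2 went from 32.9 ± 2.30 to 91.0 ± 21.7. For C3ar1 against C5ar1 the difference was 0.41 (SE 0.038, exact permutation p = 0.1), with ratios of 2.56 ± 0.0997 and 3.43 ± 0.0918. A difference within a pair is untouched by a common scaling factor apart from the pseudocount.

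The genes most alike in level across the 6 libraries were found by Euclidean distance of log2(FPKM + 1). This distance reflects the overall level of a gene as well as the difference between the groups. The 6 receptors themselves were left out of this search; Fpr1 and Fpr2 lay 0.563 from each other. Among the other genes, Slfn4, an interferon-responsive gene of myeloid cells, was nearest to both formyl peptide receptors, at distances of 0.363 to Fpr1 and 0.641 to Fpr2, with 1.61 ± 0.0714 FPKM labelled WT and 293 ± 6.20 labelled CKO. Next among them came the chemokine Ccl7 for Fpr1 (distance 1.15) and the cytokine feedback inhibitor Socs3 for Fpr2 (0.896). For C3ar1 they were Oaz1 and Scpep1 (0.120 and 0.135), for C5ar1 Mfsd5 and Ddb1 (0.169 and 0.180), for C5ar2 Tmod1 and Atp23 (0.167 and 0.225), and for Ptafr the vesicle traffic GTPase Rab1a and Fam120a (0.0681 and 0.141).

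Genes within 250 kb were read for comparison, and those named were picked after their values were seen. Around the formyl peptide receptors, the 1 tested gene besides Fpr1 and Fpr2 was Spaca6, which rose from 1.76 ± 0.241 to 5.26 ± 0.329 FPKM (log2 change 1.19). Has1, a hyaluronan synthase below the filter, read 0.0428 ± 0.0320 and 0.637 ± 0.146. Of the 13 tested neighbours of C5ar1, C5ar2 included, 11 were lower and 1 higher, against 50.5% and 30.5% of all tested genes. The smallest of these falls, -0.17 for Kptn, is about the size of the 0.16 by which median-of-ratios scaling moved the changes. Of the 8 tested around C3ar1, 6 were lower and 2 higher, and of the 13 around Ptafr, 5 were lower and 4 higher. Smpdl3b, a lipid-modifying enzyme of the membrane 150283 bases from Ptafr, went from 1.999 ± 0.129 to 67.5 ± 1.83 FPKM, opposite to Ptafr.

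For the lists that follow, the shares over all tested genes were 30.5% higher and 50.5% lower, with a median of -0.14. Ligands of the formyl peptide receptors went both ways. Of 8 listed genes 5 were tested, 2 of them higher and 3 lower, with a median of -0.79. Saa3, a serum amyloid A of macrophages, rose from 5.49 ± 0.197 to 4861 ± 122 FPKM (limma adjusted p = 1.72e-18), the largest change among the lists. App, precursor of the amyloid beta peptide, rose by 0.81. Anxa1, the annexin that acts through Fpr2 to end inflammation, fell from 260 ± 6.51 to 37.6 ± 1.00 FPKM (limma adjusted p = 2.89e-14), and Camp, the cathelicidin of neutrophil granules, from 29.4 ± 5.91 to 4.87 ± 0.797. The third lower gene, Prnp, was outside the naming rule and is given because the count is small, at -0.79.

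Genes that supply or control the anaphylatoxins were mostly higher where they were expressed. Of 17 listed, 5 were tested, 4 higher and 1 lower. The median of 1.90 is the change of Cfb itself, 1 of the 4. C3, the source of C3a, rose from 21.1 ± 0.315 to 199 ± 10.7 FPKM (limma adjusted p = 4.75e-14), while Hc, which encodes C5, was listed at 0 in the WT-labelled libraries and at 0.0668 ± 0.00504 FPKM in those labelled CKO. Cfp, the properdin that stabilises the C3 convertase, rose by 1.24 and Cpd, a carboxypeptidase, by 2.29. Cfb, a convertase subunit, rose from 0.0199 ± 0.0193 to 2.81 ± 0.188 FPKM. It passed the filter through the group labelled CKO alone, so the filter bears on its direction and on the list median. Cr1l, the complement inhibitor Crry, was the 1 lower gene, at -0.42, and was named after its value was seen.

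In PAF metabolism 6 of 10 tested genes were higher, 3 lower and 1 not called, against 30.5% higher and 50.5% lower over all tested genes, with a median of 0.36. Pla2g4a, the cytosolic phospholipase that starts PAF synthesis, rose from 3.75 ± 0.106 to 20.6 ± 0.719 FPKM, and Lpcat2, the acetyltransferase that completes it in activated macrophages, from 11.8 ± 0.457 to 22.6 ± 0.833 (limma adjusted p = 2.82e-12 and 5.16e-09). Pla2g7, the secreted PAF acetylhydrolase that destroys PAF, rose from 59.1 ± 6.22 to 242 ± 4.28 FPKM, and Lpcat1 fell from 12.0 ± 0.123 to 4.70 ± 0.284. Pafah2, another PAF acetylhydrolase, and Lpcat3 were the other lower genes, at -0.46 and -0.22, and were named after their values were seen. After median-of-ratios scaling Lpcat3 was at -0.045 and no longer called (limma adjusted p = 0.382). The list then had 6 genes higher, 2 lower and 2 not called.

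Among the G proteins and effectors shared by these receptors, 14 of 29 tested genes were higher, 12 lower and 3 not called, with a median of 0.01. Gnb4, 1 of the 14, passed the filter through the group labelled CKO and was named after its value was seen. After median-of-ratios scaling 17 were higher and 8 lower. The 4 with the smallest p were all lower: Plcb2, the phospholipase C isoform of leukocytes, changed by -2.20, Gna12 by -1.90, Dock2, an activator of Rac, by -1.27 and Gng2, a gamma subunit, by -0.93. Of 11 tested genes of receptor desensitisation 2 were higher, 7 lower and 2 not called, near the 50.5% lower of all tested genes, or 4 higher and 5 lower after median-of-ratios scaling. Rgs2 and Rgs18, which speed the shut-off of G proteins, changed by -2.49 and -1.57, and Arrb1, an arrestin that uncouples receptors, by -0.85, whereas Rgs14 rose by 0.89.

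The other receptors for chemoattractants and lipid mediators that could be tested moved differently from C5ar1 and Ptafr. All 4 tested of 9 listed were higher, with a median of 0.75. Cmklr1, the chemerin receptor, rose from 9.14 ± 0.119 to 30.5 ± 0.354 FPKM, Ltb4r1, the leukotriene B4 receptor, from 2.86 ± 0.6203 to 5.12 ± 0.439, and Cysltr1 from 3.70 ± 0.207 to 7.31 ± 1.011. Cysltr2 rose by 0.26. Ltb4r2, below the filter and named after its value was seen, went the other way, from 0.244 ± 0.00436 to 0.0478 ± 0.0141 FPKM.

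**Figure D4:**
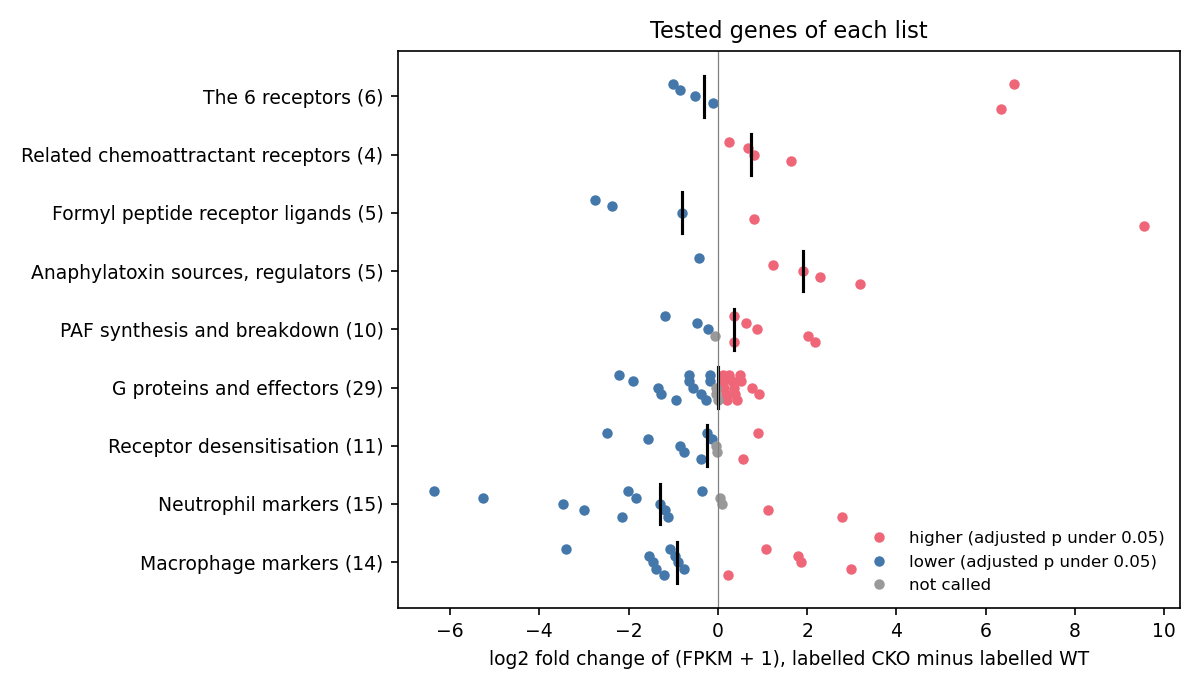
Log2 fold change of every tested gene, 1 point per gene, for the 6 receptors and 8 lists, with the number tested in brackets and the list median as a bar. Fpr1 and Fpr2 stand at 6.64 and 6.35, and Saa3 at 9.55 is the largest increase shown, while most neutrophil markers lie below 0.

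Receptors of this set, Fpr1, C5ar1 and Ptafr among them, are also expressed by neutrophils, so markers of that cell are given beside them. Of 15 tested neutrophil markers of 18 listed, 11 were lower, 2 higher and 2 not called. Of the 11, 7 had a mean under 1 FPKM in the libraries labelled CKO and were tested through their levels in those labelled WT, so the filter bears on their direction. The summed FPKM of the list was 667 to 962 in the WT-labelled libraries and 277 to 284 in those labelled CKO. S100a9 had the highest mean of the list with the WT label and Lcn2 with the CKO label. S100a9 went from 425 ± 85.0 to 37.3 ± 5.10 and S100a8 from 153 ± 25.9 to 33.4 ± 3.48, while Lcn2 rose from 21.7 ± 4.54 to 152 ± 7.25. Mmp8, the other higher marker, rose from 7.07 ± 1.35 to 16.6 ± 1.66 FPKM. Csf3r fell less, from 41.6 ± 1.82 to 32.4 ± 1.24 FPKM. Retnlg stood at 3.24 ± 1.49 FPKM with the WT label and was listed at 0 in all 3 libraries labelled CKO. Ly6g was listed at 0 in 5 of the 6 libraries and at 0.231 FPKM in WT replicate 1. The part of these cells in the values of the 6 receptors was not tested. Of the 4 tested platelet and erythroid markers 3 were lower, and the sum of that list was 181 to 198 FPKM against 117 to 129; its part was not tested either. Ppbp fell from 101 ± 6.71 to 38.5 ± 3.16 FPKM and Itga2b from 12.7 ± 1.05 to 8.001 ± 0.910, while Pf4 was at 68.9 ± 1.61 and 74.0 ± 6.08 and was not called. The lists of dendritic cells, of mast cells, basophils and eosinophils, of T, NK and B cells, and of endothelium, fibroblasts and smooth muscle summed to at most 26.7 FPKM in any library, and their part was not tested. Of their 12 tested genes 9 had a mean under 1 FPKM in one of the groups and were tested through the other, so the filter bears on their direction, and levels are given in place of counts. In the first of these lists Ccr7 went from 0.742 ± 0.0497 to 21.1 ± 1.81 FPKM and Batf3 from 1.19 ± 0.0879 to 1.72 ± 0.189, and Itgax from 10.2 ± 0.446 to 0.999 ± 0.145. In the second Prg2 went from 6.53 ± 0.633 to 1.47 ± 0.128, Kit from 3.91 ± 0.116 to 0.786 ± 0.0584 and Siglecf from 2.01 ± 0.151 to 0.0710 ± 0.00896. In the third Cd4 went from 3.94 ± 0.511 to 0.483 ± 0.0431 and Jchain from 2.12 ± 0.278 to 0.528 ± 0.0855, with Cd79a below the filter. In the last Acta2 went from 0.989 ± 0.324 to 2.82 ± 0.165, Pecam1 from 0.880 ± 0.0471 to 1.47 ± 0.175 and Kdr from 5.89 ± 0.131 to 3.94 ± 0.370.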

How the data were processed

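RNA of sorted macrophages was sequenced in 3 libraries labelled WT and 3 labelled CKO, with groups and replicate numbers from the titles. The authors deposited 1 table of FPKM per library, per the file headers. Tools named in the submitters' processing notes, which give them no role, are the read trimmer fastp 0.19.3, the aligner HISAT2 2.1.0, the assemblers Cufflinks and StringTie 1.3.4d, the counter featureCounts 1.6.2, DESeq2 1.22.1 and the variant caller GATK 4.0.11.0, on mm10; the strand setting is not given in the sources used here. FPKM times the listed gene length came within 0.1 reads of a whole multiple of 1 step in 100% of values, and the reads recovered in this way were used for depth and for 1 alternative test. Intervals and floors from reads cover counting error only.

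The 9953 genes that reached 1 FPKM in 3 or more libraries entered limma 3.58.1 in R 4.3.3 on log2(FPKM + 1), with an intensity trend and the group as the only term. Benjamini-Hochberg adjustment was over all tested genes. The fit was tested on simulated reads. Single values and pairs were compared by two-sided exact permutation tests (Python 3.11.15, numpy 2.4.6, pandas 2.3.3, scipy 1.17.1); figures used matplotlib 3.10.9. Replicates agreed less well than counting noise allows (chi-square per degree of freedom 2.16 to 3.18), so none was merged.

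The members and lists were chosen with earlier results of these data known. Named were the 6 receptors, the 2 genes most alike to each, and Alkbh5, Apoe and Lyz2. Up to 4 tested genes with the smallest p of each pathway list were also named. So were up to 3 genes with the highest level of each list of other cells. The macrophage markers Adgre1 and Cd68 and the neutrophil markers Ly6g, Retnlg, Mmp8 and Csf3r were added after their values were seen. Promoters came from RefSeq (GRCm38.p6), where all 6 receptors matched by symbol, and transcripts from GENCODE M21, whose gene spans and exon lengths equalled the listed ones for the 6 receptors. Tried besides were a replicate block, leaving out single libraries, a pseudocount of 0.1 or 0.5, a filter on mean FPKM (5 or more) or none, 2 rescalings, no trend, and limma voom on the recovered reads.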

Additional observations from a re-analysis of the deposited data

How the results depend on the processing

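Fpr1, Fpr2, C5ar1, C5ar2 and Ptafr kept their direction and their call in every alternative in which they were tested; C5ar2 was not tested where a mean FPKM of 5 was required. The log2 change ranged from 6.57 to 7.21 for Fpr1, from 6.27 to 6.93 for Fpr2, from -0.56 to -0.33 for C5ar1, from -1.95 to -0.87 for C5ar2 and from -0.90 to -0.66 for Ptafr, with limma voom on the recovered reads giving the largest values for Fpr1, Fpr2 and C5ar2. C3ar1 turned to 0.078 after median-of-ratios scaling and was lower in the other 14 alternatives. With 1 library left out, C3ar1 ranged from -0.13 to -0.09. The C5ar1 minus C5ar2 difference was 1.26 and 0.80 with pseudocounts of 0.1 and 0.5 and 1.41 on recovered reads per length, since the pseudocount of 1 compresses C5ar2. Of all genes 3038 were called higher and 5031 lower; after median-of-ratios scaling 4058 and 3874, and where a mean FPKM of 5 was required, so that fewer were tested, 3185 were lower.

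The same replicate numbers in both groups did not pair the libraries (correlations of deviations 0.019, 0.012 and -0.039). With the replicate block 3018 genes were higher and 5023 lower, and no receptor lost its call. The low read numbers of Fpr1 and Fpr2 in the WT-labelled libraries and of C5ar2 in those labelled CKO limit the precision of their ratios.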
